A study of Caenorhabditis elegans with 12 samples.

Results

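The kinase CDK-1, its B-type cyclins and the proteins that switch it on and off are described here through the transcripts of 10 genes in single oocytes of Caenorhabditis elegans. The genes were taken from a list of symbols for the meiotic maturation machinery, by name and not by a threshold on a measured value. They are cdk-1, the cyclin genes cyb-1, cyb-2.1, cyb-2.2 and cyb-3, the inhibitory kinase gene wee-1.3, the phosphatase genes cdc-25.1 and cdc-25.2, the polo-like kinase gene plk-1 and the CDK-binding subunit gene cks-1. All 10 were found among the 46903 genes of the count table, and all 10 were among the 8718 kept by a filter on low counts. No oocyte had 0 counts for any of them, the lowest being 637 and the highest 76471.

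A growing oocyte is arrested in meiotic prophase with the CDK-1 and cyclin B complex made but held inactive. WEE-1.3, a kinase of the Myt1 type, adds inhibitory phosphates to CDK-1, and CDC-25 phosphatases remove them. Once active, the complex drives nuclear envelope breakdown and entry into the meiotic divisions, with help from PLK-1. Much of this control acts on proteins and on translation, and the values below concern polyadenylated transcripts only.

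The samples were 12 single oocytes of untreated wild-type adults, 4 at each of positions -1, -3 and -5 of the gonad. The -1 oocyte lies next to the spermatheca and is the oldest and the next to mature, with -3 and -5 farther from it and younger. No animal is named in the labels, so each position was taken as 1 sample, no test between positions was made, and an SD below is the spread over the 4 oocytes of a position. Libraries came from the SMART-seq v4 3' DE kit, which amplifies cDNA by PCR and sequences it near the poly(A) tail.

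Libraries held 8358019 to 20446599 counts and 8289 to 10054 detected genes. All 15 oocyte markers were detected at every position and took 1.21% to 3.83% of counts. Sperm markers took at most 0.00162%, with spe-11, gsp-4 and comp-1, 3 of 12, at 0 in every oocyte. Replicates 1 and 3 of oocyte -3 stood apart from the other libraries, at 90.1 on the first principal component and 82.2 on the second, where the other 11 lay at or below 9.53 and 3.38. In replicate 4 of oocyte -5, the 10 sheath and spermatheca markers took 0.104% of counts, against 0.0191% to 0.0263% in the other oocytes of that position. One gene, inx-8, carried this at 673 CPM. Of the other 9 markers fln-1 was highest, at 159 to 218 CPM over the oocytes of that position. The 9 together took 0.0295% in replicate 4 against 0.0158% to 0.0251%. The 11 hypodermis markers took 0.0566% there against 0.0121% to 0.0181%. For those of the 10 genes past 1.5-fold or with oocytes that lay apart, values or ranges without these 3 oocytes are given. Some other changes on leaving them out are named in the closing section.

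Levels are summed counts of 4 oocytes over their scaled library sizes, as CPM (read counts relative to library size). Intervals are exact Poisson at 95% and cover counting error alone. The order of levels among genes was set per kb of exon, although a kit that reads 3' ends gives reads that need not grow with length. On that scale cyb-3 stood first, at a mean of 2054 CPM per kb over the 12 oocytes, and ranked 28 among the 8718 genes kept. It was followed by cdk-1 at 519, cks-1 at 468, cyb-2.2 at 386, cyb-1 at 383, plk-1 at 234 and cyb-2.1 at 214 CPM per kb. The inhibitor gene wee-1.3 stood at 75.9 CPM per kb, and the phosphatase genes cdc-25.1 and cdc-25.2 stood last at 52.7 and 27.5.

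Only 3 steps in this order separated genes whose 12 values did not overlap: cyb-3 over cdk-1, cyb-2.1 over wee-1.3, and cdc-25.1 over cdc-25.2. Neighbours elsewhere overlapped, and cdk-1 lay above cks-1 in 6 of 12 oocytes, as cyb-2.2 did above cyb-1. Counts not divided by length, in which cyb-3 ranked 20 among all genes kept, moved the places of plk-1, cyb-1, cyb-2.2 and cks-1 within the 10 genes.

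**Figure D1:**
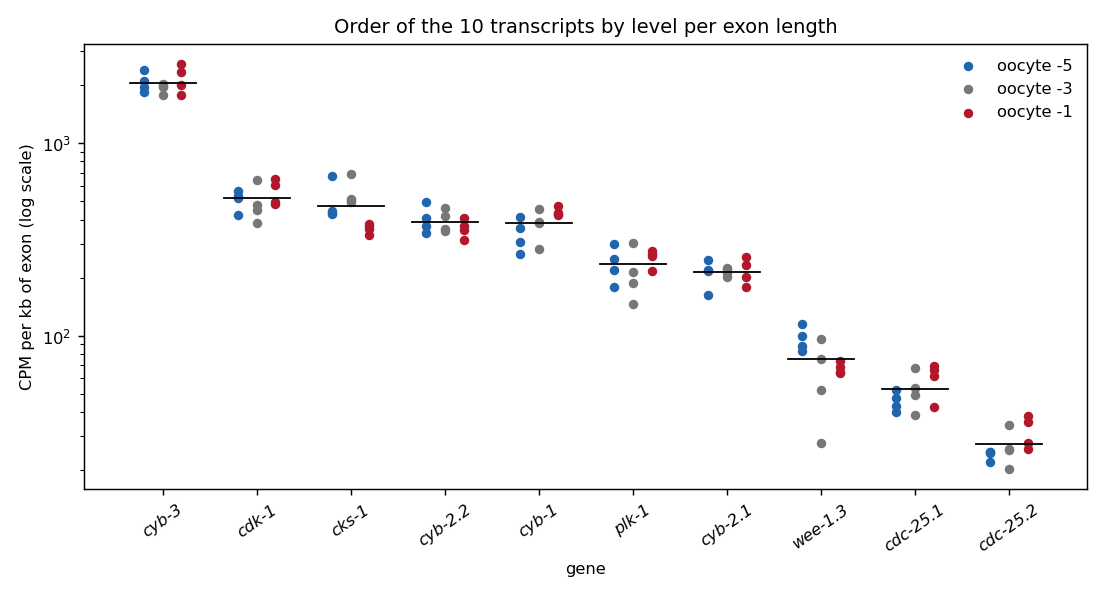
Levels per exon length of the 10 genes. The vertical axis is CPM per kb of exon on a log scale, each point is 1 oocyte coloured by position, and the bar is the mean of 12 oocytes. The cyb-3 points lie above all others, and those of cdc-25.2 below those of every gene but wee-1.3, whose lowest oocyte reached 27.8.

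The catalytic subunit gene cdk-1 (WBGene00000405, chromosome III, 9747432 to 9748852, plus strand, 5 exons) differed little between positions. The 4 oocytes at -1 held 593, 797, 605 and 744 CPM in replicates 1 to 4, those at -3 held 552, 470.4, 789 and 585, and those at -5 held 637.5, 653, 519 and 688. The 3 ranges overlapped, and the summed levels were 682 CPM (interval 675 to 688), 607 (601 to 614) and 635 (628 to 641). Its log2 ratio was 0.10 for -1 against -5, within the SD of 0.20 among the oocytes of both positions on the log2 scale.

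Polo-like kinase gene plk-1 (WBGene00004042, chromosome III, 8101348 to 8104076, plus strand, 6 exons) encodes a kinase needed for nuclear envelope breakdown and the meiotic divisions. It ranged from 499.5 to 640.3 CPM at -1, from 340 to 703 at -3 and from 413 to 693.5 at -5. Its ranges overlapped throughout, and the log2 ratio of -1 against -5 was 0.13 with an SD of 0.25.

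Among the cyclins, cyb-3 encodes the B3-type protein, which acts in chromosome separation, and cyb-1 the B1-type partner of CDK-1. The gene cyb-3 (WBGene00000868, chromosome V, 15395696 to 15397348, plus strand, 5 exons) ranged from 2571 to 3722 CPM at -1, from 2574 to 2951 at -3 and from 2675 to 3476 at -5. These ranges overlapped, and the levels were 3302 CPM (3287 to 3316), 2817 (2804 to 2830) and 3065 (3050 to 3080). Counting error was thus far smaller than the spread among oocytes.

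The gene cyb-1 (WBGene00000865, chromosome IV, 10735259 to 10737177, plus strand, 6 exons) held 772, 692.5, 708 and 709 CPM in replicates 1 to 4 of oocyte -1. At -3 the values were 465, 639, 635 and 746 CPM, and at -5 they were 594, 503, 434 and 676. The 4 oocytes at -1 lay close together, all above the 4 at -5, whereas those at -3 overlapped both. Means were 720.3 ± 35.03 CPM (SD, n = 4) at -1, 621 ± 116 at -3 and 552 ± 105 at -5, and the log2 ratio of levels, -1 against -5, was 0.36 with an SD of 0.20. It ran from 0.28 to 0.50 when any 1 oocyte was left out. With libraries scaled by total counts alone the ratio was 0.43, but the oocytes of both positions overlapped.

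The pair cyb-2.1 (WBGene00000866, chromosome IV, 10985985 to 10987426, plus strand, 4 exons) and cyb-2.2 (WBGene00000867, chromosome I, 4114734 to 4116370, plus strand, 5 exons) are closely related B-type cyclin genes. Reads that match both could have been lost or shared, so their separate values are uncertain. The levels of cyb-2.1 were 277, 272 and 275 CPM at -1, -3 and -5, and those of cyb-2.2 were 503, 546 and 574. Neither gene's oocytes lay apart between any 2 positions, and the pair summed had a log2 ratio of -0.12 for -1 against -5.

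The CDK-binding subunit gene cks-1 (WBGene00001051, chromosome IV, 8513919 to 8514725, plus strand, 2 exons) had its lowest level in the oldest oocyte. Replicates 1 to 4 of oocyte -1 held 255, 263, 247 and 232 CPM. Those of oocyte -3 held 351.5, 353, 479 and 340 CPM, and those of oocyte -5 held 296, 308, 300.2 and 468. Every -1 oocyte lay below every oocyte of both younger positions. Levels were 248 CPM (244 to 252) at -1, 381 (376 to 386) at -3 and 356 (351 to 361) at -5.

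The log2 ratio of cks-1 was -0.53 for -1 against -5 and -0.62 for -1 against -3, with SDs of 0.23 and 0.17. Both comparisons share the -1 oocytes. The first ratio passed 1.5-fold without replicate 1 (-0.60) or replicate 2 (-0.59) of oocyte -5. It was -0.28 without replicate 4 of oocyte -5, the oocyte with the highest cks-1 level of its position and the most inx-8 and hypodermis marker counts. The high level was not particular to cks-1. That oocyte was also the highest of its position for cdk-1, cyb-1, cyb-2.1, cyb-2.2, cyb-3 and cdc-25.1. It was not the highest for plk-1, wee-1.3 or cdc-25.2. The part of other cells' RNA in the result was not tested. The second ratio was -0.49 without replicate 3 of oocyte -3 and -0.58 without replicate 4 of oocyte -1. It ran from -0.69 to -0.49 when any 1 oocyte was left out. Without replicates 1 and 3 of oocyte -3 together it was -0.48. Under total counts alone the ratios were -0.45 and -0.42, and the oocytes overlapped.

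The inhibitor gene wee-1.3 (WBGene00006940, chromosome II, 9713737 to 9716467, minus strand, 7 exons) was highest in the youngest oocyte sampled. Replicates 1 to 4 held 177, 156.5, 154 and 165 CPM at -1, and 278, 200.1, 212 and 240.1 CPM at -5. All 4 oocytes at -5 lay above all 4 at -1. At -3 the values were 66.9, 231, 126 and 182 CPM, a 3.45-fold range that spanned the -1 values and reached into those at -5. Means were 163 ± 10.2 CPM (SD, n = 4) at -1, 151 ± 70.8 at -3 and 232.5 ± 34.4 at -5.

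For wee-1.3 the log2 ratio of -1 against -5 was -0.50 with an SD of 0.16, and ran from -0.56 to -0.41 when any 1 oocyte was left out. It was -0.42 under total counts alone, where the oocytes overlapped. The ratio of -3 against -5 was -0.66, close to its SD of 0.57, and ran from -0.86 to -0.42 when any 1 oocyte was left out. It was -0.42 without replicate 1 of oocyte -3, -0.58 without replicate 3 of that position and -0.57 without replicate 1 of oocyte -5, all short of 1.5-fold, and -0.22 without replicates 1 and 3 of oocyte -3 together. Between -1 and -3 the ratio was 0.16, and was -0.08 without replicate 1 of oocyte -3 and -0.27 without both.

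Both phosphatase genes leaned the other way. The gene cdc-25.1 (WBGene00000386, chromosome I, 6469386 to 6471995, minus strand, 7 exons), known for its role in germline proliferation, held 144, 99.6, 163 and 155.5 CPM at -1 and 111, 93.5, 101 and 121.5 CPM at -5. Replicate 2 of oocyte -1 fell among the -5 values and the other 3 lay above them. Its log2 ratio was 0.40 with an SD of 0.26, and was 0.49 without that oocyte. Of its exonic bases, 0.300% overlap K06A5.2 on the other strand.

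The gene cdc-25.2 (WBGene00000387, chromosome V, 1567076 to 1585532, plus strand, 7 exons) encodes the phosphatase required for oocyte maturation. It held 64.0, 95.2, 88.2 and 69.0 CPM at -1, 50.2, 63.6, 85.1 and 63.4 at -3, and 62.0, 61.0, 61.7 and 54.7 at -5. All -1 oocytes lay above all -5 oocytes, though the lowest -1 value, 64.0, was close to the highest -5 value, 62.0. These values rest on 1315 and 783 counts, and the gap between them is within counting error. The -3 oocytes overlapped those of both positions. The log2 ratio of -1 against -5 was 0.34 with an SD of 0.20, from 0.25 to 0.44 when any 1 oocyte was left out. Under total counts alone it was 0.41, and the oocytes still lay apart.

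**Figure D2:**
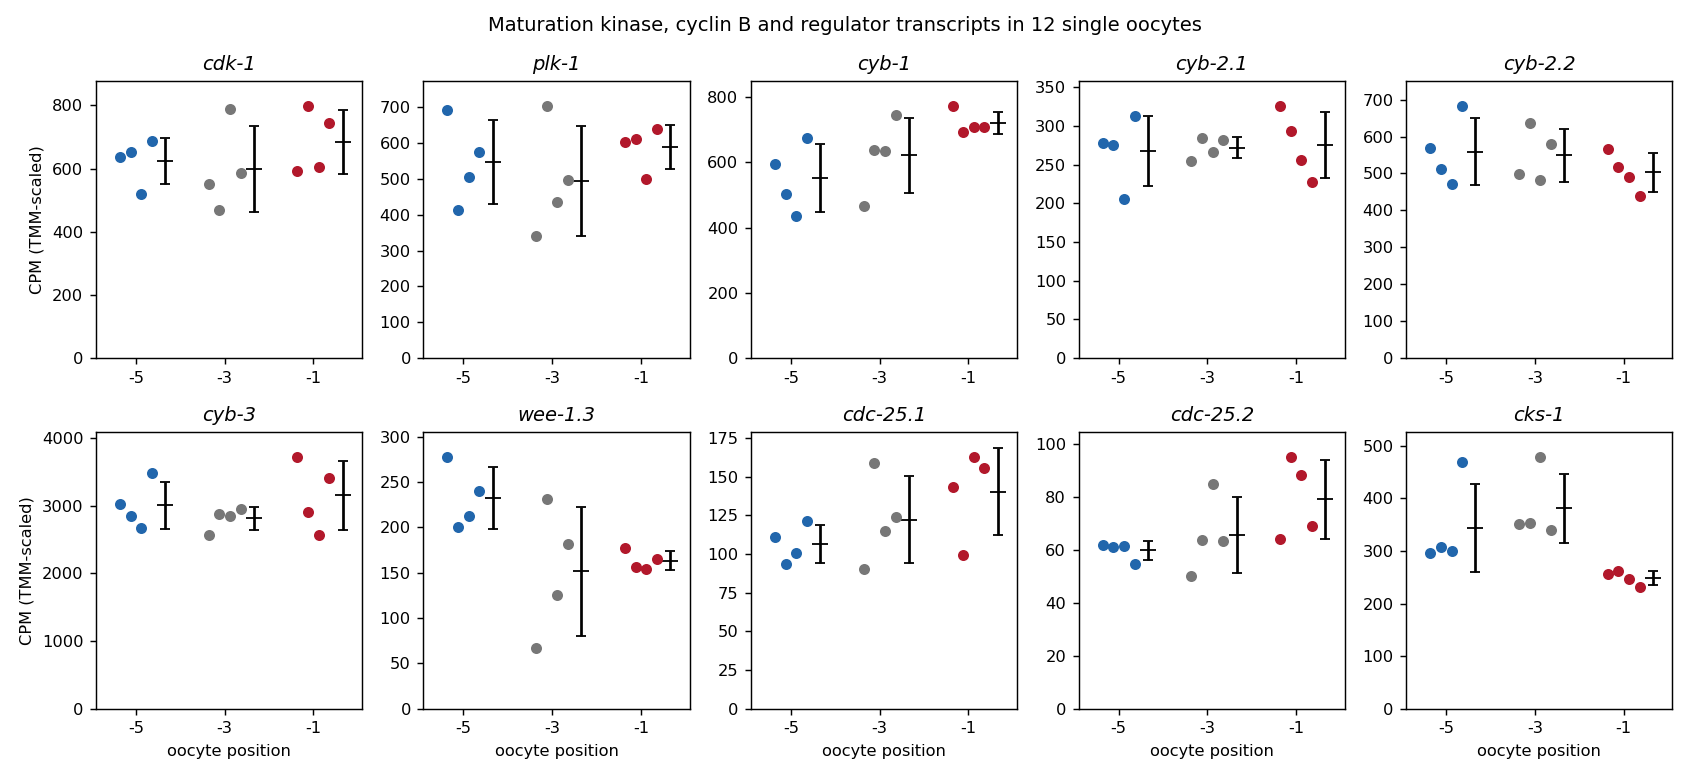
Levels of the 10 genes in each oocyte. Vertical axes are CPM from 0, points are single oocytes at positions -5, -3 and -1, and the mark and bars are the mean and SD of 4 oocytes. At -1 all 4 points lie above all 4 at -5 for cyb-1 and cdc-25.2, and below them for wee-1.3 and cks-1.

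Over the 10 genes, oocyte -1 against oocyte -5 compared the oldest with the youngest oocytes. No gene passed 1.5-fold, a size that 11% of all genes kept passed as higher and 13.6% as lower. Among genes of at least 20 CPM, 7.56% passed it in either direction. The gene cks-1 passed it without replicate 1 or replicate 2 of oocyte -5. The oocytes of both positions lay apart for 4 of the 10 genes, cyb-1 and cdc-25.2 higher and wee-1.3 and cks-1 lower at -1. Among all genes kept, 2.64% lay apart as higher and 2.89% as lower. Such shares were not computed among genes of like abundance. Under total counts alone 1 of the 10 genes lay apart, cdc-25.2. The median log2 ratio was 0.11, against -0.01 over all genes, and the median absolute ratio was 0.26 against 0.27.

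Some marker lists of other cells also differed between these positions. Hypodermis markers took 0.00791% to 0.0108% of counts at -1 and 0.0121% to 0.0566% at -5, with dpy-7, rol-6, sqt-3 and bli-1 at 0 in every oocyte. Of the 7 that were kept, 7 were past 1.5-fold lower at -1, and 6 without replicate 4 of oocyte -5. Muscle markers took 0.0885% to 0.169% at -1 and 0.0438% to 0.112% at -5, with 8 of 13 past 1.5-fold higher and 2 lower at -1. Without replicate 1 of oocyte -1 that turned, with 1 higher and 8 lower. One gene, unc-54, made up most counts of this list, at 832 CPM at -1 and 524 at -5. Intestine markers took overlapping shares, 0.00599% to 0.0330% at -1 and 0.00996% to 0.0289% at -5. Of 10 kept, 2 were past 1.5-fold higher and 1 lower at -1. For sheath and spermatheca markers, 1 of 6 kept was higher and 3 were lower. For sperm markers, 0 of 3 kept were higher and 1 was lower. Of the 15 oocyte markers, 9 were past 1.5-fold lower at -1, and 9 without replicate 4 of oocyte -5. The part of these differences in the results of the 10 genes was not tested.

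Oocyte -1 against oocyte -3 gave 1 gene past 1.5-fold, cks-1, which was lower. Among all genes 16.6% were higher and 19.9% lower by that measure. The same gene alone had oocytes that lay apart, where 3.43% of all genes lay apart as higher and 2.99% as lower. Without both oocytes of -3 that stood apart, 5 genes lay apart, with cdk-1 and cdc-25.2 higher and cyb-2.2, wee-1.3 and cks-1 lower at -1, and none passed 1.5-fold. With 2 oocytes left at -3, 8.61% of all genes lay apart as higher and 8.64% as lower. The median log2 ratio was 0.18, against 0.02 over all genes, and 0.37 against 0.21 under total counts alone. It was 0.05 without both oocytes.

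Oocyte -3 against oocyte -5 gave wee-1.3 as the 1 gene past 1.5-fold, lower at -3, where 17% of all genes were higher and 17.2% lower. No gene had oocytes that lay apart, against 2.86% of all genes as higher and 3.15% as lower. Without both oocytes of -3 that stood apart none passed 1.5-fold, and cdc-25.1 and cdc-25.2 lay apart as higher at -3, where 8.91% of all genes lay apart as higher and 7.97% as lower. The median log2 ratio was -0.04, or 0.05 without both oocytes, against -0.01 over all genes, and the median absolute ratio was 0.13 against 0.38. The 3 comparisons share oocytes with one another.

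**Figure D3:**
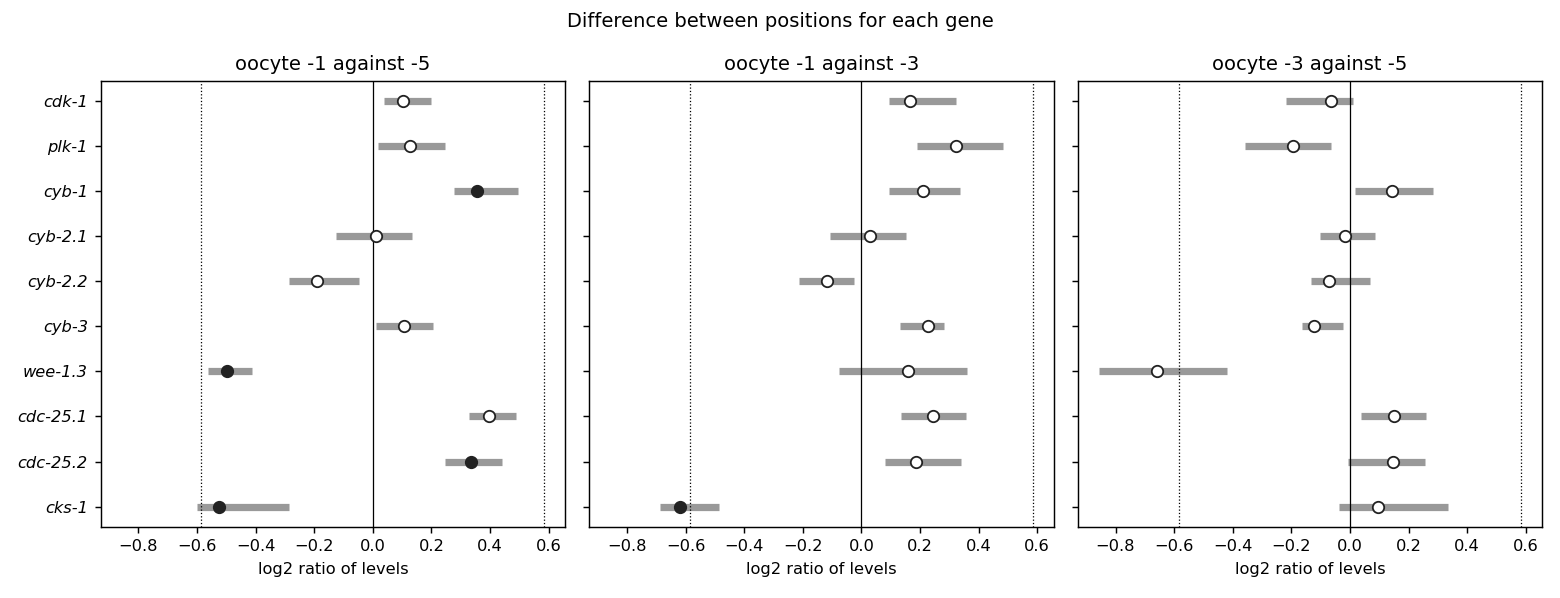
Log2 ratio of levels between positions. Circles are the ratios of the 10 genes in each of the 3 comparisons, filled where the 4 oocytes of one position all lay beyond the other 4, and grey bars span the ratios with any 1 oocyte left out. Dotted lines mark 1.5-fold, which cks-1 passed for -1 against -3 and wee-1.3 for -3 against -5.

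The log2 fold changes in the authors' deposited tables had the same sign as these ratios in all but 1 of the 30 values, that of cyb-2.1 for -3 against -5. For -1 against -5 the authors' deposited table gives -0.53 for wee-1.3, -0.48 for cks-1, 0.37 for cyb-1 and 0.38 for cdc-25.2.

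Proportions between transcripts of 1 oocyte do not depend on how libraries are scaled. The pairs set out here were chosen after the levels had been seen. In oocyte -5 there were 1.61, 1.295, 1.31 and 1.36 counts of the inhibitor gene wee-1.3 for each count of cdc-25.1 and cdc-25.2 together in replicates 1 to 4. At -1 the proportion was 0.852, 0.803, 0.615 and 0.7345, and at -3 it was 0.475, 1.04, 0.628 and 0.969. Every -5 oocyte lay above all 8 older oocytes in this proportion. Its size depends on the length and 3' ends of the genes, and only its differences between oocytes are read.

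On the log2 scale the proportion of wee-1.3 to the phosphatase genes differed by -0.87 between -1 and -5, from -0.95 to -0.80 when any 1 oocyte was left out. It differed by -0.81 between -3 and -5, and by -0.49 without replicates 1 and 3 of oocyte -3. Between -1 and -3 the difference was -0.06.

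The proportion of cks-1 to cdk-1 counts ran from 0.312 to 0.431 at -1, from 0.581 to 0.750 at -3 and from 0.465 to 0.680 at -5. Every -1 oocyte lay below all others. On the log2 scale the difference was -0.63 between -1 and -5 and -0.79 between -1 and -3. Without replicate 4 of oocyte -5 the first was -0.45.

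Within the B-type cyclins, cyb-3 took 63.9% to 71.3% of the counts of the 4 genes over the 12 oocytes. The share of cyb-1 was 14.3% to 17.6% at -1, 12.3% to 16.4% at -3 and 11.5% to 13.3% at -5. Its -1 oocytes lay above its -5 oocytes, so that cyb-1 made up a larger part of the cyclin B counts at -1 than at -5. All 10 genes together took 0.418% to 0.846% of the counts of an oocyte.

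Of the 45 proportions that the 10 genes form in pairs, 16 had oocytes that lay apart between -1 and -5, 8 between -1 and -3 and 2 between -3 and -5. Among all pairs of the 6825 kept genes with counts in every oocyte, 5.52%, 7.07% and 6.22% lay apart in the 3 comparisons. These shares were not computed among pairs of like abundance or like spread among oocytes. Of its 9 pairs, wee-1.3 was in 7 of those for -1 and -5, cks-1 in 6 and cyb-1 in 5. Between -1 and -3, cks-1 was in 7 of its 9. Pairs that share a gene share its counts.

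**Figure D4:**
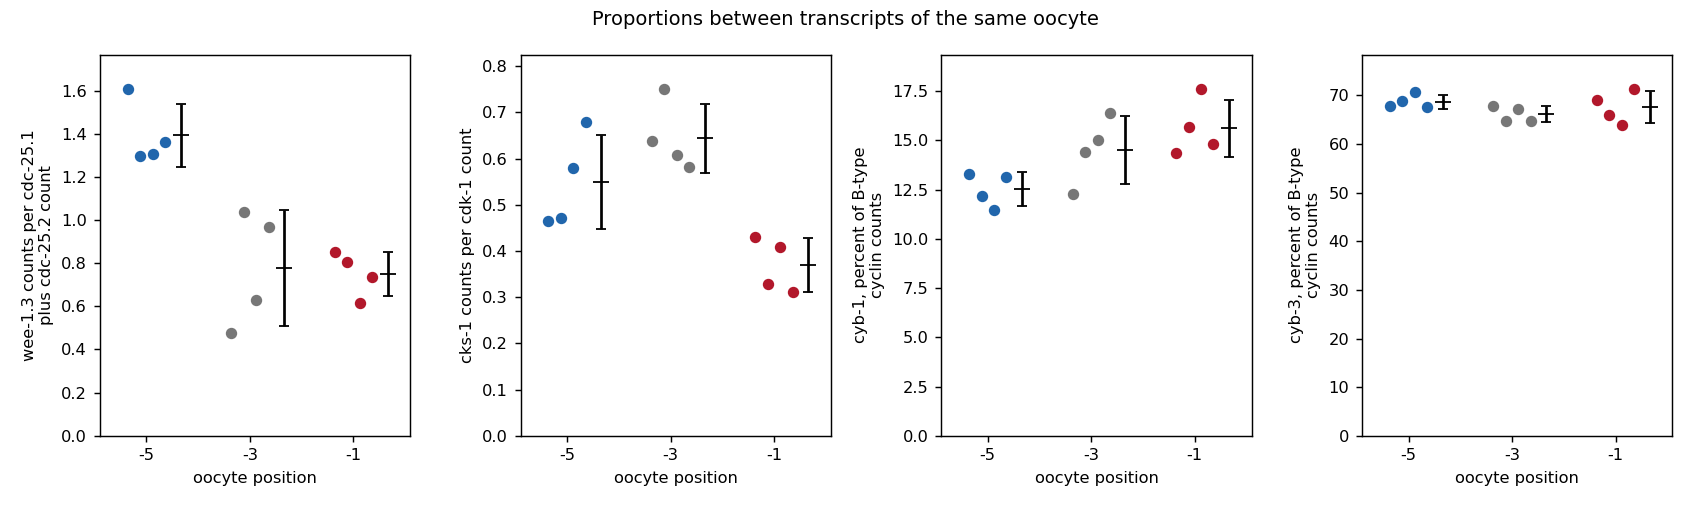
Proportions between transcripts of the same oocyte. Vertical axes are wee-1.3 counts per cdc-25.1 plus cdc-25.2 count, cks-1 counts per cdk-1 count, and the percent of B-type cyclin counts from cyb-1 and from cyb-3, each point is 1 oocyte, and the mark and bars are mean and SD of 4. The 4 points at -5 lie above all others in the first panel, and the 4 at -1 below all others in the second.

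The 10 genes varied less among oocytes of a position than the typical gene. Their median coefficient of variation was 12.7% at -1, 20.4% at -3 and 15.6% at -5, against 28.7%, 40.5% and 31.1% over all genes kept. The gap was smaller against abundant genes: among 3711 genes of at least 50 CPM the medians were 17.2%, 27.1% and 19.7%, and 8 of the 10 genes lay below them at each position. The highest value was that of wee-1.3 at -3, at 46.8%.

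Over the 12 oocytes, which share their library and its depth between genes, 32 of the 45 pairs of genes had a Pearson correlation above 0 on log2(CPM + 1), as did 50.4% of the pairs of all genes kept. The highest were cyb-2.1 with cyb-2.2 (r = 0.74), plk-1 with wee-1.3 (0.73) and cyb-1 with cdc-25.1 (0.70), and the lowest was cyb-2.2 with cdc-25.2 (-0.37). Among 5185 genes of at least 20 CPM, the patterns most like that of cdk-1 were those of cdk-9 (r = 0.85), hmg-1.1 (0.84) and W08G11.3 (0.81). Those most like cyb-3 were pos-1 (0.88), hrdl-1 (0.86) and R05H10.3 (0.86), and those most like cdc-25.2 were zhp-4 (0.82), pink-1 (0.82) and frh-1 (0.81). These are descriptions of 12 points.

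Other cyclin and cyclin-dependent kinase genes were measured alongside, and all 21 of the 21 listed were kept. Between -1 and -5 none was past 1.5-fold higher and 2 were lower, between -1 and -3 there were 1 and 4, and between -3 and -5 there were 3 and 1. Their median log2 ratios were 0.02, -0.24 and 0.09.

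The cyclin E gene cye-1, which pairs with CDK-2, stood at 38.8 CPM at -1, 40.1 at -3 and 79.8 at -5. Its -5 oocytes, from 64.6 to 88.7 CPM, lay above all others, with log2 ratios of -1.04 for -1 against -5 and -0.99 for -3 against -5. The cyclin H gene cyh-1 had a ratio of -1.096 for -1 against -5 with overlapping oocytes, and -0.58 without replicate 2 of oocyte -5. For -1 against -3 its ratio of -0.64 fell short of 1.5-fold without replicate 1 of oocyte -3 (-0.42) or replicates 1 or 4 of oocyte -1 (-0.48 and -0.44).

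The other differences past 1.5-fold in that list involved oocyte -3. The cyclin T gene cit-1.2 was at 4.94, 11.8 and 4.48 CPM at -1, -3 and -5, with -3 oocytes above all others. Its lowest -3 value, 7.144 CPM, was close to the highest at -1, 7.057, and at -5, 7.035. The Mediator kinase gene cdk-8 was at 71.5, 113 and 62.8 CPM, and the CDK inhibitor gene cki-1 at 4.05, 9.37 and 3.83, both with overlapping oocytes. The ratio of cdk-8 for -1 against -3, -0.66, was -0.18 without replicate 1 of oocyte -1 and -0.40 without replicate 4 of oocyte -3, and that for -3 against -5, 0.85, was 0.53 without replicate 4 of oocyte -5. For cki-1, the ratio of -1 against -3 was -1.21, and -1.98 without replicate 1 of oocyte -1, and that of -3 against -5 was 1.29, and 2.21 without replicate 4 of oocyte -5. The transcription kinase gene cdk-12 was past 1.5-fold higher at -1 than at -3, by 0.59 with overlapping oocytes, and was 0.37 without replicate 1 of oocyte -3, 0.41 without replicate 4 of oocyte -1 and 0.58 without replicate 1 of oocyte -1.

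Regulators of CDK-1 and of entry into the divisions had 27 of 28 genes kept. Between -1 and -5, 1 was past 1.5-fold lower and none higher. For -1 against -3 there was 1 in each direction, and for -3 against -5 there were 1 higher and 2 lower. Median log2 ratios were -0.01, 0.13 and -0.10.

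The gene lower at -1 than at -5 was lin-41, which encodes an RNA-binding protein that holds oocytes back from maturation and is one of the oocyte markers. It stood at 85.6 CPM at -1, 92.4 at -3 and 160 at -5, with -5 oocytes above all others and a log2 ratio of -0.91 for -1 against -5. The gene spat-1, whose product activates PLK-1, stood at 130 CPM at -1 and 79.6 at -3, with the oocytes apart and a ratio of 0.71, which was 0.54 without replicate 3 of oocyte -3. A gene of a PP2A regulatory subunit, rsa-1, was highest at -3, at 933 CPM against 459 at -1 and 506 at -5, with log2 ratios of -1.02 for -1 against -3 and 0.88 for -3 against -5. Its -3 oocytes lay above those at -1 and overlapped those at -5, and the second ratio was 0.59 without replicate 4 of oocyte -5. The kinase gene par-4 had a ratio of -0.80 for -3 against -5, with overlapping oocytes. That ratio was -1.76 without replicate 4 of oocyte -3, -0.40 without its replicate 1, -0.56 without its replicate 3 and -0.31 without replicate 4 of oocyte -5.

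The closest relatives of the 10 genes were listed whatever their values. Of the WEE1-type paralog wee-1.1 only a mean of 0.0142 CPM was seen, and no count of cdc-25.4 was found at any position, where 3 counts correspond to 0.0496, 0.0477 and 0.0565 CPM at -1, -3 and -5. The gene cdc-25.3 stood at 19.7, 29.9 and 16.7 CPM, with -3 oocytes above those at -5 (0.84) and overlapping those at -1. Its ratio of -0.60 for -1 against -3 fell short of 1.5-fold without any of 4 oocytes, replicates 1 or 4 of -1 or 3 or 4 of -3, the smallest being -0.40. The polo-like kinase gene plk-2 stood at 101, 82.8 and 98.5 CPM, and plk-3 at 268, 387 and 374.

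**Figure D5:**
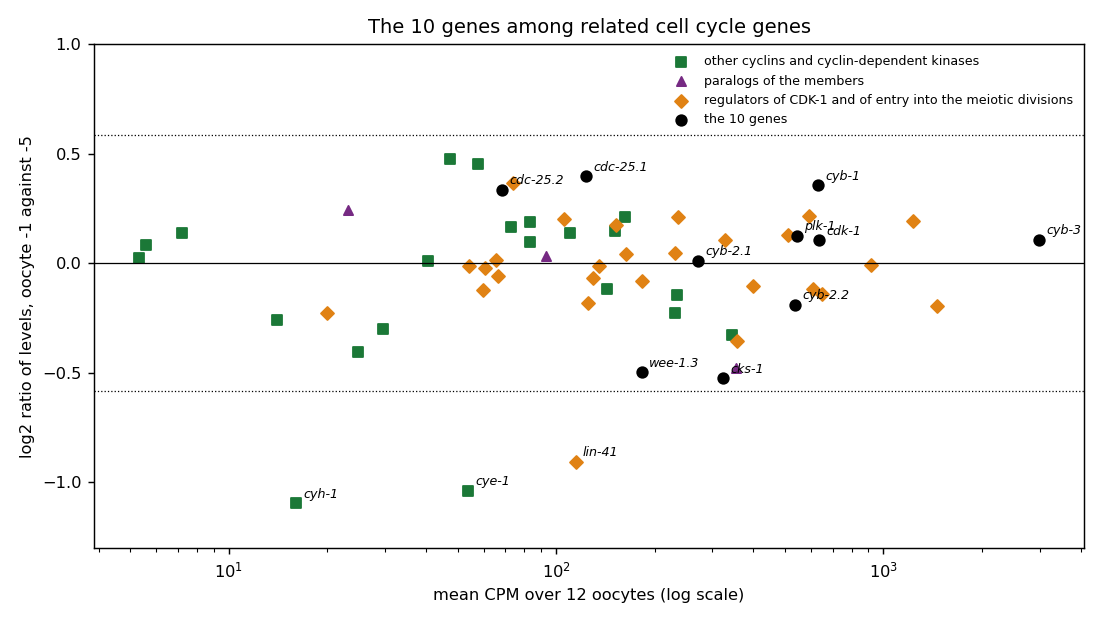
The 10 genes among related genes for oocyte -1 against -5. The horizontal axis is mean CPM over 12 oocytes on a log scale, the vertical axis is the log2 ratio of levels, and dotted lines mark 1.5-fold. Of the genes shown, cyh-1, cye-1 and lin-41 lie below the lower line, and the 10 genes (black) lie between the lines.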

How the data were processed

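Poly(A) 3' ends of 12 single oocytes were sequenced, 4 per position. The deposited counts are whole reads per gene, not normalized. Reads were trimmed with cutadapt 1.18, then passed through STAR and featureCounts 1.5.3, per the submitters' processing notes. The header of the count file names featureCounts 1.6.4. Per the file headers, genes came from WormBase release WS271, and the counting command set neither strand nor multi-mapping, so reads of a gene and its antisense partner cannot be told apart. Coordinates come from the count table, whose build was not given in the sources used here. The authors' deposited tables give log2 fold changes from DESeq2 1.32.0, per the submitters' processing notes, and only those were copied.

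Genes were kept with edgeR 4.0.16 (R 4.3.3, default filter), which left 8718 of 46903. Library sizes were scaled with TMM factors, and DESeq2 1.42.0 size factors were an alternative. CPM values are shares of a library, so RNA per oocyte is unknown. A level is the summed count of 4 oocytes over their summed scaled sizes, with an exact Poisson 95% interval that covers counting error only, since reads carry no molecular identifiers. Ratios compare 2 levels, with a floor of 3 counts over a position. Positions were treated as 1 sample each and no test was made. A size of 1.5-fold (0.585 on the log2 scale) and oocytes that lie apart are descriptions, set beside the share among all genes kept. Library depths of 8358019 to 20446599 counts made counting error small beside the spread of oocytes. The ratio script was checked on simulated counts.

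The 10 genes were named throughout. From each list of related genes, those past 1.5-fold at a mean of at least 5 CPM were named, and paralogs whatever their value. Marker lists are given by counts and shares. Likeness used genes of at least 20 CPM. The genes, lists and measures were chosen with earlier results of these data known.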

Additional observations from a re-analysis of the deposited data

Results flagged for a closer look

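In 30 groups of 4 oocytes, 3 held a value far from the other 3, and chance marks about 1 in 20 groups. The cks-1 level of replicate 3 of oocyte -3 was 478.6 CPM, where the other 3 at that position held 340 to 353 CPM. That of replicate 4 of oocyte -5 was 468 CPM, against 296 to 308 CPM. The cdc-25.2 level of replicate 4 of oocyte -5 was 54.7 CPM, against 61.0 to 62.0 CPM. Replicate 3 of oocyte -3 stood apart over all genes, and replicate 4 of oocyte -5 held the most inx-8 and hypodermis marker counts. None of 30 groups of proportions between transcripts held such a value.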

How the results depend on the processing

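Each alternative changed 1 choice at a time. Of 480 values for single genes and proportions, 474 moved by less than the spread among oocytes and 6 by more, and of 108 medians and counts, 85 stayed close and 23 moved. Most of the 480 left out 1 of 4 oocytes, which can seldom move a value by as much as that spread. The 474 are therefore no measure of stability. With total counts and no further scaling, the median of all genes moved to 0.21 for -1 against -3 and -0.13 for -3 against -5. The median of the 10 genes for -1 against -3 was then 0.37. Under it the number with oocytes apart was 1 for -1 against -5 and 0 for -1 against -3, and the number past 1.5-fold for -1 against -3 was 0. Medians of oocyte CPM gave 0 genes past 1.5-fold for -1 against -3 and 0 for -3 against -5. Without both oocytes of -3 that stood apart, 0 genes passed 1.5-fold in either comparison, and 5 and 2 lay apart for -1 against -3 and -3 against -5, where fewer oocytes make lying apart more frequent among all genes too. Leaving out 1 oocyte gave 0 to 1 genes past 1.5-fold in each comparison, which was cks-1 for -1 against -5. It gave 1 to 3 genes apart for -1 against -3 and 0 to 1 for -3 against -5. Without replicate 3 of oocyte -3, cdk-1 and cdc-25.2 joined cks-1 for -1 against -3. For -3 against -5, cdc-25.2 lay apart as higher without replicate 1 of oocyte -3. So did cks-1 without replicate 4 of oocyte -5, with a ratio of 0.34 against 0.10. The share of all genes apart with 1 oocyte left out was not computed. The ratio of cks-1 for -1 against -5 was -0.28 as a median of oocytes and the same without replicate 4 of oocyte -5. The share of all genes past 1.5-fold was 24.6%, 36.6% and 34.2% in the 3 comparisons, 37.3%, 42.9% and 42.3% with no filter, and 7.56%, 21.0% and 16.9% at 20 CPM or more. Signs of cyb-2.1 turned in each comparison. Signs of cyb-2.2 and wee-1.3 turned for -1 against -3, and those of cdk-1, plk-1, cyb-2.2, cdc-25.2 and cks-1 for -3 against -5. The cause of these changes was not tested. No paired analysis was possible because the results come from no test and replicate numbers name no animal.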
